A study of Mus musculus with 4 samples.

Results

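The genes described here are 10 members of the pathway that runs from interleukin-1 and Toll-like receptors to NF-kB and that miR-146a is known to restrain. They are the adaptor Myd88, the kinases Irak4, Irak1 and Irak2, their inhibitor Irak3, the ubiquitin ligase Traf6, its partners Tab2 and Map3k7, the NF-kB subunit Relb and the transcriptional coactivator Med1. They were chosen by gene symbol, and are 10 of the gene rows of the count matrices, or 0.0310% of them. Liver cells that carry the leukocyte surface protein CD45 were sorted, and their transcripts were counted as UMIs (unique molecular identifiers) after 10x 5′ sequencing of single cells. There were 4 libraries of female mice on a C57BL/6 background, 1 library per group, and the number of mice behind a library is not stated. Of these, 1 came from untreated WT mice about 8 weeks old, called young WT below. The other 3 groups were 36 weeks old by the labels and had been given the carcinogen DEN (diethylnitrosamine) at 25 mg/kg at 14 days of age, then weaned at 21 days onto a choline-deficient high-fat diet (CDHFD). Their genotypes were WT, miR-146a-/- and miR-146a-/- Ccl5-/- (DKO), so both mutant groups lack miR-146a in all cells from birth. The young WT group differs from WT in age as well as in treatment, and these cannot be told apart.

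In this pathway, ligand-bound receptors recruit MyD88, which gathers the IRAK kinases, and these engage TRAF6. TRAF6 builds ubiquitin chains that TAB2 binds, which brings in the kinase TAK1, encoded by Map3k7, and TAK1 turns on NF-kB and MAP kinases. NF-kB induces miR-146a in immune cells, and miR-146a in turn represses Traf6 and Irak1, a loop that limits inflammation, also in liver, where macrophages meet microbial products from the gut.

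The mature miRNA is shown with that of its paralog miR-146b, since both carry the same seed, the bases that pair with a target. The sequences are from RefSeq on the build GRCm38.p6, 5′ to 3′, with the seed (bases 2 to 8) in capitals, from chr11:43374435-43374456 on the minus strand and chr19:46342790-46342811 on the plus strand. They differ at 2 positions, both outside the seed.
mmu-miR-146a-5p: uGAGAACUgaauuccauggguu
mmu-miR-146b-5p: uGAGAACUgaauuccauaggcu

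The reverse complement of the seed, AGTTCTC, was searched on the transcript strand of the 3′ UTRs of the 10 genes, because these are the places where loss of miR-146a could act directly. It occurs 4 times in Traf6, at 2 positions in Irak1, at 2 in Irak2 and at 1 in Med1, and in none of the annotated 3′ UTRs of Myd88, Irak4, Irak3, Tab2, Map3k7 and Relb. All 4 matches of Traf6, both of Irak1 and 1 of Irak2 are followed by an A, the form usually held to bind best. Each match is printed as 30 bases from GENCODE M21 transcripts on the build GRCm38, 5′ to 3′ on the transcript strand, with the match in capitals. For Traf6 these are chr2:101697947-101697976, chr2:101698011-101698040, chr2:101698823-101698852 and chr2:101701347-101701376 (plus strand). For Irak1 they are chrX:74015383-74015412 and chrX:74015367-74015396 (minus strand), which overlap. For Irak2 they are chr6:113694121-113694150 and chr6:113694254-113694283 (plus strand), and for Med1 chr11:98154288-98154317 (minus strand).
Traf6 site 1: gctctggtgttgAGTTCTCatttagttgac
Traf6 site 2: ctggaaggcttaAGTTCTCaagtactccct
Traf6 site 3: actttggagtctAGTTCTCagggagcccta
Traf6 site 4: ctttgctactgcAGTTCTCaaacatggaag
Irak1 site 1: ctcagaggtcaaAGTTCTCatgcttggaag
Irak1 site 2: ctcatgcttggaAGTTCTCatagtgtgcaa
Irak2 site 1: cccaaacctcttAGTTCTCcacaacggaca
Irak2 site 2: ggtgtctccgcaAGTTCTCaagttcaggac
Med1 site: tatagaattaatAGTTCTCctacttccaca

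Longer 3′ UTRs hold more chance matches. The 3′ UTR of Traf6 has 4170 bases, and 35.1% of genes with a 3′ UTR at least as long have a match within that length. This share is 12.2% at the 1522 bases of Irak1, 9.86% at the 1246 bases of Irak2 and 7.63% at the 993 bases of Med1. Over all 20584 genes with an annotated 3′ UTR, 2113 (10.3%) have a match. The genes were picked as miR-146a targets and their pathway, so the number of members with a match, 4 of 10, is no finding. With the shorter match to bases 2 to 7 it is 6 of 10, against 27.7% of all genes, and Myd88 and Relb, with 1 each, are those added. A match is a string of letters and does not show that the site is used.

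**Figure D1:**
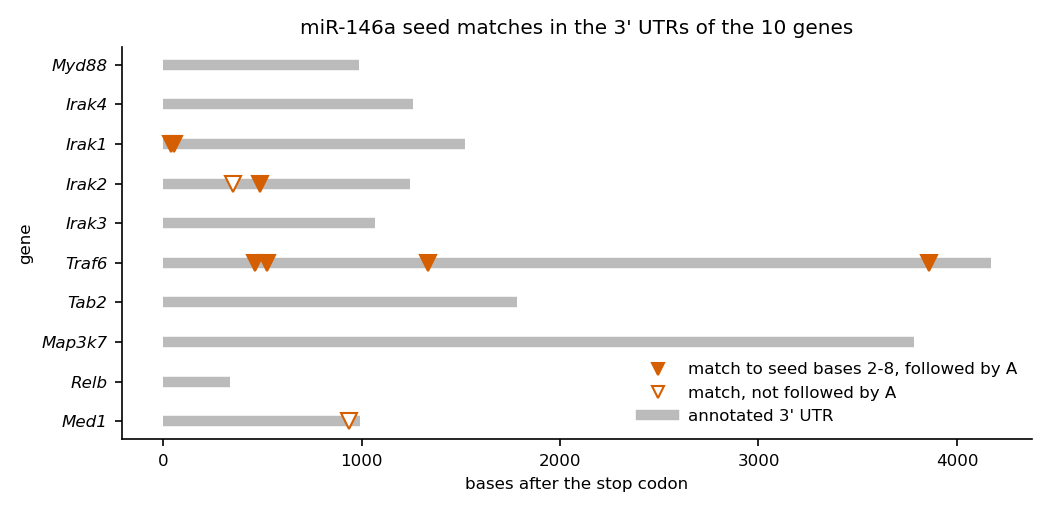
Matches to the miR-146a seed in the annotated 3′ UTR of each of the 10 genes, by bases after the stop codon. Grey bars are the 3′ UTRs, filled marks are matches followed by an A and open marks other matches, and Traf6 holds 4 of the 9.

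The deleted genes were read before the others. Ccl5 stood at 12496 CPM (UMIs of a gene per 1000000 UMIs) over all kept cells of miR-146a-/- mice and at 65.4 CPM in DKO mice. The largest source, PD-1+ CD8 T cells, went from 35633 to 207 CPM. The matrices have no row for the miR-146a gene (Mir146), so its loss could not be read from them. Kept cells numbered 10283, 8329, 7824 and 9850 in young WT, WT, miR-146a-/- and DKO mice, the order used for every set of 4 values below, with 83882711, 84158257, 79464882 and 96747482 UMIs. Between 96 and 127 cell barcodes were shared by any pair of libraries, 1.18% to 1.52% of the smaller library.

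Cells were put into 16 classes by UMIs of marker genes. The T-cell markers Cd3d, Cd3e and Cd3g together reached 2303 to 4894 CPM in the T-cell classes and at most 31.0 CPM in the others, as the gates require. Lyz2, a gene of monocytes and macrophages, gave 7185 to 17668 CPM in the monocyte and macrophage classes and 8.48 to 55.9 CPM in T, NK, ILC1 and B cells. The latter was taken as a measure of free RNA, though missed doublets could add to it, and in B cells it was 8.48, 28.9, 16.6 and 14.7 CPM. Hepatocyte transcripts (Alb, Apoa1 and Ttr) stayed at or under 57.2 CPM in every class. Cells that passed the gates of several lineages were left out. Those passing the T-cell and the monocyte or macrophage gates made up 2.51%, 10.96%, 7.77% and 6.50% of kept cells, so the share was highest in WT. Together with the upper limit on features this is all that limited doublets. Some classes were small, with 102, 47, 223 and 230 regulatory T cells, 13, 56, 23 and 37 mature dendritic cells and 21, 23, 78 and 105 neutrophils.

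The question put to the genotypes is whether loss of miR-146a moves its target pathway, and whether loss of Ccl5 as well changes that. In these data, transcripts of the members with seed matches were not generally higher without miR-146a. By at least 1.5-fold, Irak2 was lower than in WT in classical and patrolling monocytes and C1q macrophages of both mutants, and Traf6 in the latter 2 classes. Of these, the DKO ratio of Traf6 in C1q macrophages is at the fold and passed it in 1 of 6 planned settings, and the DKO ratios of Irak2 in the monocytes fell under it with TMM factors. Irak2 was higher in PD-1+ CD8 T cells of miR-146a-/- mice, a ratio that left the fold without cells holding the V segment Trbv13-3 and with cells of 2 lineages kept. Irak3 was higher in patrolling monocytes of miR-146a-/- and in C1q macrophages of DKO mice. Relb lay below WT in most classes, but by 1.5-fold in just 3 of 15 in miR-146a-/- and 2 of 15 in DKO mice. Each group is 1 library, so genotype and library cannot be told apart and no test was possible.

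A gene was compared in a class when both libraries together held at least 40 UMIs of it at 10 CPM or more, and it counts as past the fold at 1.5-fold or more. All 10 members met the minimum in some class. Between miR-146a-/- and WT mice, 141 of 160 combinations of member and class could be compared. Of these, 9 were higher and 14 lower past the fold, 6.38% and 9.93%, against 5.66% and 7.36% over all genes of the same classes. Between DKO and WT mice it was 4 higher and 14 lower of 144, 2.78% and 9.72%, against 5.39% and 6.73%. Between DKO and miR-146a-/- mice, 1 was higher and 4 lower of 145, 0.690% and 2.76% against 3.66% and 2.62%. Between WT and young WT, 5 were higher and 6 lower of 134, 3.73% and 4.48% against 6.37% and 5.46%. The shares lie within a few points of those of all genes, so as a group the 10 genes did not stand apart, and the counts are not a result about the members.

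The median log2 ratio of the member combinations was -0.03 between miR-146a-/- and WT mice, where that of all genes was 0.00. It was -0.05 between DKO and WT mice, against -0.01, and -0.02 between DKO and miR-146a-/- mice, against -0.01. Between WT and young WT the values were 0.06 and 0.01. The comparisons share libraries and are not independent. The split by direction moved with the scaling. With TMM factors in place of total UMIs, DKO against WT gave 6 higher and 8 lower, so that 42.9% of those past the fold were higher in place of 22.2%. The same scaling gave 11 and 12 for miR-146a-/- against WT, and 8 and 6 for WT against young WT. Where the exact 95% interval of the ratio also had to leave out 1, the counts were 7 and 10 for miR-146a-/- against WT and 2 and 10 for DKO against WT. All intervals printed cover counting error only.

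**Figure D2:**
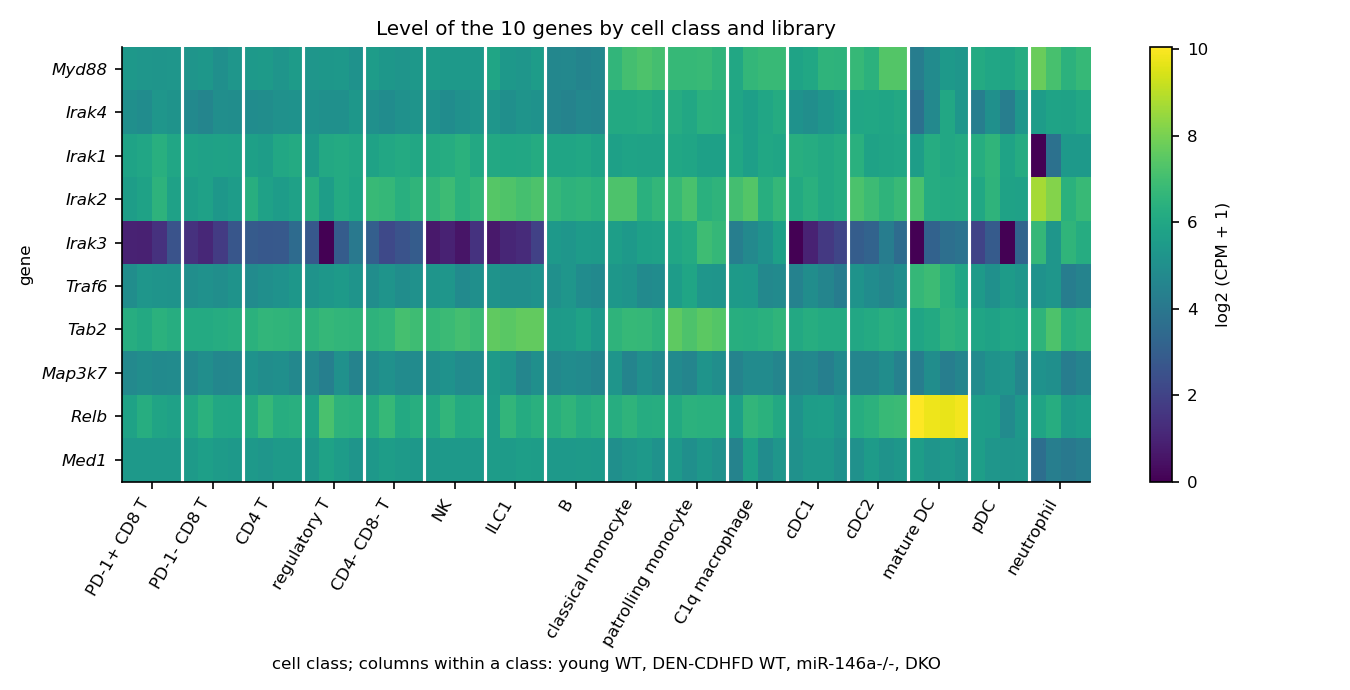
Level of each of the 10 genes (vertical) in each cell class (horizontal) as log2 (CPM + 1), with 4 columns per class in the order young WT, WT, miR-146a-/- and DKO. Relb stands out in mature dendritic cells and Irak3 is near 0 in NK and ILC1 cells, and colours are to be compared along a gene and not between genes.

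Myd88 (ENSMUSG00000032508, chr9:119335934-119340041, minus strand) encodes the adaptor that links the receptors to the IRAK kinases. Orders of classes here and below are of UMIs summed over the 4 libraries, and libraries can differ from them. Summed so, Myd88 was high in type 2 dendritic cells (cDC2), at 141 CPM (133 to 150.02), and classical monocytes, at 135 CPM (129.6 to 142). Of these, cDC2 were the lower in WT and the higher in miR-146a-/- and DKO mice, as the levels below show. It was lowest in B cells, at 24.0 CPM (22.2 to 25.9). In classical monocytes it stood at 98.6 CPM for young WT, 131 for WT, 149 for miR-146a-/- and 131 for DKO, and in B cells at 24.4, 24.8, 22.0 and 23.9 CPM. Monocytes, C1q macrophages and cDC2 lay above all T, NK, ILC1 and B cells in every library. In cDC2, Myd88 was 107 CPM (87.8 to 129) for young WT, 86.4 (71.4 to 104) for WT, 166 (147 to 186) for miR-146a-/- and 162 (148 to 177) for DKO. Against WT this was 1.91-fold higher (1.54 to 2.40) in miR-146a-/- and 1.87-fold higher (1.53 to 2.31) in DKO mice, while young WT mice lay between. The former left the fold when cells were thinned to 2000 UMIs, and the latter kept it in all 6 planned settings. Markers of monocytes moved along in this class among the treated libraries, but were highest in young WT. The summed level of 8 monocyte genes in cDC2 was 3252, 1388, 3142 and 2265 CPM, with Lyz2 the most abundant and none of the 8 at 0, and their part in the Myd88 difference was not tested. In type 1 dendritic cells (cDC1), Myd88 was 55.5, 61.9, 92.9 and 88.7 CPM, again higher in both mutants than in WT. Over all classes the ratio of miR-146a-/- to WT mice fell on either side of 1, above it in 7 of 16 classes compared.

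Irak4 (ENSMUSG00000059883, chr15:94543643-94568306, plus strand) encodes the kinase that MyD88 recruits before the other IRAKs, and it has no seed match. It was highest in patrolling monocytes, at 80.3 CPM (76.2 to 84.7) over the 4 libraries, though not in WT, where classical monocytes had 67.6 CPM, and lowest in B cells, at 23.2 CPM (21.4 to 25.1). In patrolling monocytes it stood at 74.0 CPM for young WT, 65.1 for WT, 83.2 for miR-146a-/- and 81.0 for DKO, and in PD-1+ CD8 T cells at 31.4, 28.8, 38.2 and 34.4 CPM. Its ratios were small but mostly on the same side. It was above WT in 12 of 15 classes in miR-146a-/- mice, with a median log2 ratio of 0.22, and in 14 of 15 in DKO mice, with a median of 0.26. All of these ratios have the same WT library below the line, so they are not independent. Mature dendritic cells alone passed the fold, at 11.96, 25.9, 64.9 and 38.0 CPM, with miR-146a-/- 2.50-fold higher (1.39 to 4.55) than WT, which rests on 23 and 28 UMIs in WT and miR-146a-/- mice. In the same class DKO was lower than miR-146a-/- past the fold, at a log2 ratio of -0.76, which left the fold with the gates doubled. Over all gated cells Irak4 rose from 31.4 CPM in WT to 44.0 in miR-146a-/- and 46.2 in DKO mice. These libraries hold more monocytes, and with every library weighted to the class mix of WT the levels were 38.1 and 37.5 CPM.

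Irak1 (ENSMUSG00000031392, chrX:74013918-74023915, minus strand) encodes a kinase that carries the signal on to TRAF6, and it is a classic miR-146a target with 2 of the sites printed above. It was among the most even of the genes across classes, from 74.0 CPM (69.1 to 79.2) in cDC1 to 38.7 CPM (32.3 to 46.0) in neutrophils. In PD-1+ CD8 T cells, Irak1 was 56.4 CPM (48.3 to 65.4) for young WT, 60.9 (56.6 to 65.3) for WT, 80.4 (75.5 to 85.5) for miR-146a-/- and 60.8 (56.2 to 65.7) for DKO. The miR-146a-/- library alone was high, 1.32-fold higher (1.20 to 1.45) than WT, which is under the fold. In NK cells it was 69.9, 73.0, 83.7 and 67.1 CPM, in B cells 59.4, 59.4, 62.5 and 55.02 CPM and in classical monocytes 51.3, 56.1, 55.1 and 54.9 CPM. In these classes no pair of treated libraries differed by 1.5-fold. Of the 16 classes, 11 had a ratio of miR-146a-/- to WT above 1, with a median log2 ratio of 0.07. Among treated libraries the fold was passed in plasmacytoid dendritic cells (pDC), lower in miR-146a-/- than in WT mice, and in neutrophils, higher in both mutants, each with an interval that holds 1. The pDC ratio left the fold in 2 of 6 planned settings. When cells were thinned, the neutrophil ratio turned below 1 in miR-146a-/- mice and left the fold in DKO mice. In CD4 T cells Irak1 was 51.6, 47.1, 64.3 and 70.3 CPM, higher in both mutants than in either WT library.

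Irak2 (ENSMUSG00000060477, chr6:113638467-113695026, plus strand) encodes a further IRAK kinase, which sustains signaling late in the response, and carries 2 sites. With the 4 libraries summed, ILC1 had the highest level, 153 CPM (147 to 159), and PD-1- CD8 T cells the lowest, 46.7 CPM (44.4 to 49.1). The order differed between libraries. ILC1 led in miR-146a-/- and DKO mice, but in WT C1q macrophages (164 CPM) and neutrophils (290.3 CPM) were above ILC1 (156 CPM), and in young WT neutrophils were (412 CPM). Its ratio of miR-146a-/- to WT went in opposite directions in PD-1+ CD8 T cells and in monocytes and macrophages. In PD-1+ CD8 T cells, Irak2 was 47.6 CPM (40.2 to 56.0) for young WT, 55.1 (51.1 to 59.3) for WT, 90.6 (85.4 to 96.0) for miR-146a-/- and 53.3 (49.0 to 57.9) for DKO. The miR-146a-/- level was 1.64-fold higher (1.49 to 1.81) than in WT mice, and the DKO level was 1.70-fold lower (1.53 to 1.88) than in miR-146a-/- mice. The other 3 libraries lay closer together. In PD-1- CD8 T cells the miR-146a-/- library was the lowest, at 47.7, 53.1, 38.8 and 46.6 CPM. When cells passing the gates of 2 lineages were kept, the log2 ratio of miR-146a-/- to WT in PD-1+ CD8 T cells went from 0.72 to 0.29, under the fold, and the DKO ratio to miR-146a-/- fell under it too. With TMM factors and with the gates doubled it stayed past the fold. The gate counts cells with a UMI of Pdcd1, and 207 of 358, 236 of 1436, 369 of 1582 and 395 of 1400 cells had just 1.

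PD-1+ CD8 T cells were also split by T-cell receptor V segments, chosen after the values above were seen. A cell counts as having a segment from 1 UMI, so free RNA can add cells. Cells with a UMI of the segment Trbv13-3 made up 21 (5.87%), 26 (1.81%), 496 (31.4%) and 69 (4.93%) of the class. In miR-146a-/- mice, Irak2 stood at 155 CPM (142 to 168) in cells with this segment and at 63.8 CPM (58.6 to 69.3) in the others. The same split gave 78.7 CPM (49.3 to 119) and 54.6 CPM (50.5 to 58.8) in WT mice, and in DKO mice 42.4 CPM (27.1 to 63.0) and 53.9 CPM (49.5 to 58.7). Genes of NK cells and ILC1 were also higher in the miR-146a-/- cells with the segment than in the others, with Gzmc at 37.2 CPM (31.2 to 44.0) and 8.85 CPM (6.99 to 11.04), Ncr1 at 39.4 CPM (33.2 to 46.3) and 15.4 CPM (12.9 to 18.3) and Klrb1c at 35.8 CPM (30.0 to 42.5) and 18.3 CPM (15.6 to 21.3). The other libraries differed in this. For DKO cells with and without Trbv13-3, Ncr1 was 19.4 CPM (9.69 to 34.7) and 34.1 CPM (30.6 to 37.9), which overlap. Klrb1c was lower with the segment in DKO cells, at 17.6 CPM (8.46 to 32.5) and 38.7 CPM (34.9 to 42.7). Gzmc was 0 CPM (0 to 6.51) and 3.99 CPM (2.85 to 5.43) there. Tyrobp, also a gene of NK cells, was 307 CPM (263 to 356) and 255 CPM (245 to 265) in DKO cells. Tyrobp was 123 CPM (112 to 135) and 104 CPM (97.3 to 111) in miR-146a-/- and 401 CPM (330.1 to 482) and 132 CPM (126 to 139) in WT cells. Gzmc was lower with the segment in WT cells, at 0 CPM (0 to 13.2) and 27.3 CPM (24.5 to 30.4). Ncr1 was 17.9 CPM (5.81 to 41.8) and 32.9 CPM (29.8 to 36.3) there. Klrb1c was 39.4 CPM (19.7 to 70.4) and 24.7 CPM (22.0 to 27.7), and for both genes the intervals overlap. Cells with Trbv16 in WT mice had more Gzmc, at 71.3 CPM (62.7 to 80.6) and 9.27 CPM (7.39 to 11.5), but not more Irak2, at 48.4 CPM (41.5 to 56.2) and 57.7 CPM (52.9 to 62.9). The part of NK and ILC1 genes in the Irak2 level was not tested. With the Trbv13-3 cells left out of every library, Irak2 in miR-146a-/- mice was 1.17-fold that of WT (1.04 to 1.31), no longer past the fold. Irak1 showed less of the same, at 96.1 CPM (86.4 to 107) in the miR-146a-/- cells with the segment and 73.9 CPM (68.3 to 79.8) in the others, and its ratio to WT without them was 1.22 (1.09 to 1.35). Median depth was alike, 6804 UMIs in the miR-146a-/- cells with the segment and 6872 in the others. Trbv17 was found in 5.03%, 34.1%, 6.57% and 3.36% of the cells and Trbv16 in 4.75%, 25.9%, 7.33% and 34.8%, so WT cells often held either.

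**Figure D3:**
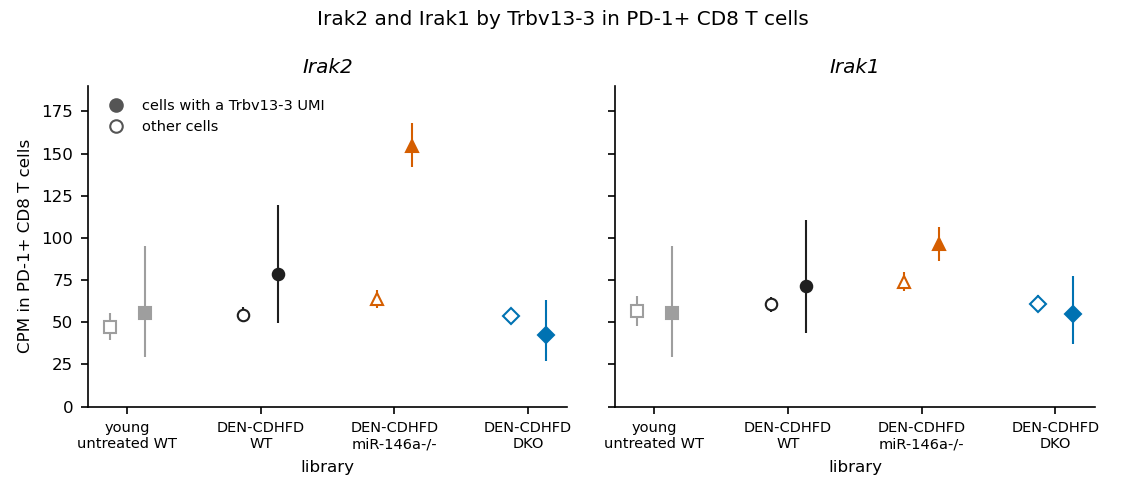
Irak2 (left) and Irak1 (right) in PD-1+ CD8 T cells of each library in CPM, split by whether a cell had a Trbv13-3 UMI (filled) or not (open), with exact 95% Poisson intervals. The miR-146a-/- cells with the segment stand apart for Irak2.

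In the monocyte and macrophage classes, Irak2 was lower in both mutants. It was 151 CPM (125 to 182) for young WT, 152 (137 to 169) for WT, 82.9 (75.0 to 91.5) for miR-146a-/- and 100.03 (92.6 to 108) for DKO in classical monocytes. Against WT this was 1.83-fold lower (1.59 to 2.12) in miR-146a-/- and 1.52-fold lower (1.33 to 1.73) in DKO mice, and the young WT level was close to that of WT. In patrolling monocytes, Irak2 was 107 CPM for young WT, 143 for WT, 83.5 for miR-146a-/- and 91.5 for DKO. These levels were 1.71-fold lower (1.44 to 2.02) and 1.56-fold lower (1.33 to 1.83) than in WT. In macrophages high in C1q it was 130.2 CPM for young WT, 164 for WT, 77.6 for miR-146a-/- and 102 for DKO, which gives 2.10-fold lower (1.65 to 2.71) and 1.60-fold lower (1.35 to 1.90). In all 3 classes the WT library was the highest of the treated ones and the miR-146a-/- library the lowest. With TMM factors the DKO ratios in classical and in patrolling monocytes fell under the fold, as did the former with each cell given equal weight. The 3 miR-146a-/- ratios stayed past it under all 6 planned settings of the scaling, cells and gates. Of 16 classes, Irak2 was below WT in 13 in miR-146a-/- and in 15 in DKO mice. In ILC1 the levels were 169.8, 156, 137 and 149 CPM, and in B cells 102, 90.6, 93.7 and 84.2 CPM, without a difference past the fold.

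Irak3 (ENSMUSG00000020227, chr10:120141648-120201659, minus strand), also called IRAK-M, encodes the family member that inhibits the pathway and is made mostly in monocytes and macrophages. It has no seed match. Its order over the 4 libraries was patrolling monocytes at 105 CPM (101 to 110.4), neutrophils at 80.7 CPM (71.3 to 91.0), classical monocytes at 50.1 CPM (46.5 to 53.8), B cells at 41.5 CPM (39.1 to 44.0) and C1q macrophages at 40.5 CPM (35.7 to 45.8). Only the last pair overlap in their intervals. In young WT the 21 neutrophils led, at 103 CPM. NK cells were lowest, at 0.968 CPM (0.591 to 1.49). In patrolling monocytes, Irak3 was 60.4 CPM (41.0 to 85.7) for young WT, 70.3 (56.8 to 86.0) for WT, 120.0 (112 to 129) for miR-146a-/- and 103 (96.8 to 110.0) for DKO. Against WT this was 1.70-fold higher (1.38 to 2.14) in miR-146a-/- mice, and 1.46-fold higher (1.19 to 1.83) in DKO mice, just under the fold. In C1q macrophages it was 18.6 CPM for young WT, 25.4 for WT, 34.2 for miR-146a-/- and 51.4 for DKO. The DKO level there was 2.002-fold higher (1.41 to 2.99) than that of WT, and the miR-146a-/- interval (24.5 to 46.4) overlapped that of WT (17.8 to 35.2). In classical monocytes the levels were 48.6, 40.8, 51.2 and 52.7 CPM and in B cells 41.6, 37.7, 44.5 and 43.1 CPM, which shows how much smaller the differences were there. In cDC2, at 6.87, 8.20, 18.3 and 10.9 CPM, the miR-146a-/- library was 2.16-fold higher (1.09 to 4.90) than WT and DKO was 1.68-fold lower (1.002 to 2.80) than miR-146a-/-, and both ratios left the fold with the gates doubled. Among the treated libraries the monocyte markers in cDC2 given above moved the same way. Young WT, however, had the highest marker sum and the lowest Irak3 of this class. The part of these markers was not tested. Of the 6 classes that met the minimum, all were above WT in miR-146a-/- mice. Of the 6 compared for DKO mice, all were too, except that doubling the gates put DKO neutrophils below WT. The minimum is set on both libraries together, so a low gene can meet it through the library where it is high. In cDC2 Irak3 did so, at 8.20 CPM in WT and 18.3 CPM in miR-146a-/- mice, so the minimum partly shaped this tally.

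Over all gated cells Irak3 was 10.3, 9.92, 24.9 and 29.7 CPM. Much of that gap went with the mix of cells in the libraries. Patrolling monocytes numbered 64, 115, 606 and 928 and classical monocytes 56, 175, 258 and 363. With the class mix of WT given to each library, Irak3 was 10.7, 9.92, 13.5 and 15.2 CPM. In T cells, which hold little Irak3, the DKO level was the highest of the 4, as in PD-1+ CD8 T cells (0.972, 0.872, 1.68 and 4.91 CPM), PD-1- CD8 T cells (1.72, 1.15, 2.36 and 5.43 CPM) and regulatory T cells (5.91, 0, 6.61 and 15.8 CPM, where the 0 allows up to 6.47 CPM, the level that 3 UMIs would give). Between DKO and miR-146a-/- mice, regulatory T cells were 2.34-fold higher (1.20 to 5.03), a ratio that left the fold in 2 of 6 planned settings (cells of 2 lineages kept, equal weight of cells). An exception were CD4- CD8- T cells, with 7.19, 3.61, 5.02 and 6.51 CPM. Levels in both CD8 T classes lie under the minimum of 10 CPM, and neutrophil markers were higher there in both mutants than in WT. In regulatory T cells the miR-146a-/- level (6.61 CPM) lies under 10 CPM too, so Irak3 met the minimum through the DKO library. The summed neutrophil markers in PD-1+ CD8 T cells were 1.62, 1.66, 13.5 and 15.4 CPM. In regulatory T cells they were 0.985, 2.16, 8.64 and 16.9 CPM. Lyz2 in PD-1+ CD8 T cells was highest in WT, at 19.1, 47.2, 26.0 and 31.6 CPM. The 8 monocyte genes together were highest in young WT there, at 680, 469, 541 and 533 CPM, with Ly6c2 the most abundant. Ly6c2 also led this sum in PD-1- CD8 T cells, at 1437, 1729, 1934 and 1391 CPM. The sum is therefore not taken as a measure of free RNA in these cells. The part of free RNA in the Irak3 levels was not tested.

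Traf6 (ENSMUSG00000027164, chr2:101678440-101701669, plus strand) encodes the ubiquitin ligase on which the IRAK signal converges, and has the most sites. Over the 4 libraries it was highest in mature dendritic cells, at 93.7 CPM (81.1 to 108), clear of all other classes, which lay between 40.7 CPM (32.3 to 50.7) in pDC and 21.3 CPM (16.6 to 26.9) in neutrophils with intervals that overlap from each class to the next. In PD-1+ CD8 T cells, Traf6 was 29.5 CPM (23.7 to 36.2) for young WT, 37.9 (34.6 to 41.4) for WT, 36.01 (32.8 to 39.5) for miR-146a-/- and 35.4 (31.9 to 39.2) for DKO. The treated libraries overlapped there. In patrolling monocytes it was 46.7 CPM (29.9 to 69.5) for young WT, 59.8 (47.4 to 74.5) for WT, 37.7 (33.0 to 42.8) for miR-146a-/- and 37.1 (33.3 to 41.3) for DKO. Both mutants lay below WT, miR-146a-/- 1.60-fold lower (1.22 to 2.06) and DKO 1.62-fold lower (1.247 to 2.06), with young WT in between. The former, but not the latter, left the fold with each cell given equal weight. In C1q macrophages the levels were 43.4, 40.9, 25.02 and 27.4 CPM, 1.62-fold lower (1.04 to 2.63) in miR-146a-/- and 1.5005-fold lower (1.06 to 2.10) in DKO mice than in WT, and the DKO ratio is at the fold and left it under 5 of 6 other settings. In mature dendritic cells Traf6 was 102, 119, 83.4 and 61.2 CPM, with DKO 1.93-fold lower (1.33 to 2.92) than WT, and in cDC1 21.05, 29.3, 22.9 and 17.7 CPM, with DKO 1.65-fold lower (1.11 to 2.45). These ratios kept their side of the fold in all 6 planned settings. In classical monocytes it was 39.2, 36.1, 27.2 and 29.1 CPM, in B cells 31.8, 37.8, 28.9 and 26.6 CPM and in NK cells 36.8, 38.2, 27.1 and 31.2 CPM, lower in both mutants than in WT but not by 1.5-fold. Traf6 was below WT in 11 of 14 classes in miR-146a-/- mice (median log2 ratio -0.31) and in 11 of 15 in DKO mice (-0.29). In no class was it higher past the fold in a mutant. Between DKO and miR-146a-/- mice no class passed the fold.

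Tab2 (ENSMUSG00000015755, chr10:7905653-7956230, minus strand) encodes the adaptor that binds the ubiquitin chains made by TRAF6. It was highest in ILC1, at 191 CPM (185 to 198) over the 4 libraries, then patrolling monocytes, at 171 CPM (165 to 178), and lowest in B cells, at 45.5 CPM (42.9 to 48.1), each apart from its neighbour beyond counting error. In ILC1 it stood at 194 CPM for young WT, 179.7 for WT, 201 for miR-146a-/- and 197 for DKO. Levels in ILC1 were similar in the 4 libraries. Over classes, Tab2 was above WT in 11 of 16 in miR-146a-/- mice (median log2 ratio 0.17) and in 9 of 16 in DKO mice (0.09). CD4- CD8- T cells came nearest to a difference, at 90.2, 97.4, 134 and 123 CPM, with both mutants above both WT libraries. Neutrophils alone passed the fold, and are described below. Map3k7 (ENSMUSG00000028284, chr4:31964120-32023467, plus strand) encodes the kinase TAK1, which TAB2 brings in. It lay between 33.6 CPM (30.9 to 36.6) in ILC1 and 21.3 CPM (16.6 to 26.9) in neutrophils, and in PD-1+ CD8 T cells it was 25.3, 29.5, 27.1 and 27.8 CPM. In ILC1 the libraries ranged from 23.6 to 43.5 CPM. Of 13 classes compared, miR-146a-/- lay below WT in 8, with a median log2 ratio of -0.06 and a lowest of -0.58, just under the fold. In patrolling monocytes Map3k7 was 27.3, 23.2, 35.9 and 29.9 CPM, 1.53-fold higher (1.06 to 2.33) in miR-146a-/- than in WT mice. In regulatory T cells it was 25.6, 19.4, 33.0 and 21.4 CPM, with 9 UMIs behind the WT value. There miR-146a-/- was 1.62-fold higher (0.844 to 3.89) than WT, past the fold in all 6 planned settings but with an interval that holds 1, and DKO was 1.53-fold lower (1.02 to 2.36) than miR-146a-/-. The ratio in patrolling monocytes left the fold in 2 of the 6 settings and this DKO ratio in 3.

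Relb (ENSMUSG00000002983, chr7:19606217-19629438, minus strand) encodes the NF-kB subunit of the alternative route, which pairs with the product of Nfkb2 and is needed for dendritic cell maturation. Its annotated 3′ UTR of 336 bases has no match to bases 2 to 8 and 1 to bases 2 to 7. Of genes with a 3′ UTR at least as long, 9.43% have this shorter match within that length. Mature dendritic cells were far above all other classes, at 908 CPM (868 to 949.8) over the 4 libraries, and cDC2 came next, at 103 CPM (96.0 to 111), though not in WT or young WT. In mature dendritic cells it was 1065 CPM (914 to 1233) for young WT, 884 (823 to 948) for WT, 844 (759 to 935) for miR-146a-/- and 946 (870.2 to 1027) for DKO. The intervals of all 4 overlapped. Outside this class Relb was mostly highest in WT. In CD4- CD8- T cells it was 71.9 CPM (67.7 to 76.2) for young WT, 104 (96.7 to 113) for WT, 68.8 (60.9 to 77.5) for miR-146a-/- and 79.0 (71.98 to 86.6) for DKO, and the miR-146a-/- level was 1.52-fold lower (1.32 to 1.75) than WT, close to the fold and under it in 2 of 6 planned settings. In regulatory T cells it was 56.1 CPM for young WT, 142 for WT, 90.5 for miR-146a-/- and 84.6 for DKO, 1.58-fold lower (1.17 to 2.10) in miR-146a-/- and 1.69-fold lower (1.24 to 2.26) in DKO than in WT mice. WT held only 47 regulatory T cells, and with each cell given equal weight or with cells of 2 lineages kept these ratios lay under the fold.

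In PD-1+ CD8 T cells Relb was 54.4, 75.9, 57.1 and 53.1 CPM, in NK cells 67.1, 97.8, 69.1 and 74.5 CPM and in B cells 77.5, 94.3, 74.4 and 83.3 CPM. In each of these the WT library was the highest and the other 3 were nearer to each other. Relb was below WT in 13 of 15 classes in miR-146a-/- mice, with a median log2 ratio of -0.40, and in 13 of 15 in DKO mice, with -0.39. cDC2, at 76.5, 86.4, 109.6 and 116 CPM, was an exception in both mutants. Against young WT, treated WT mice had more Relb in 14 of 15 classes, with a median of 0.48. It was past the fold in ILC1, at 46.6, 97.0, 72.3 and 83.3 CPM, 2.08-fold higher (1.73 to 2.51), in regulatory T cells, 2.53-fold higher (1.75 to 3.68), and in C1q macrophages, 1.92-fold higher (1.18 to 3.56). The last rests on 33 young WT cells and left the fold with the gates doubled and when cells were thinned. With the class mix of WT given to each library, Relb was 78.3, 102, 80.2 and 83.8 CPM. The WT library thus stood apart from the other 3 also at an equal mix, and whether that belongs to the mice or to the library cannot be told apart.

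Med1 (ENSMUSG00000018160, chr11:98154248-98192955, minus strand) encodes a subunit of Mediator, which connects transcription factors to RNA polymerase II, and has 1 site. It was even across classes, from 46.6 CPM (43.4 to 50.03) in ILC1 to 35.3 CPM (32.6 to 38.2) in patrolling monocytes, with only neutrophils lower, at 17.4 CPM (13.2 to 22.5). In PD-1+ CD8 T cells it was 40.8, 41.5, 42.0 and 41.4 CPM, and in B cells 41.0, 41.6, 44.0 and 41.3 CPM. The 4 libraries overlapped in both. In C1q macrophages alone it passed the fold, at 21.7, 52.2, 28.4 and 37.9 CPM, with WT 2.26-fold higher (1.11 to 6.19) than young WT and miR-146a-/- 1.83-fold lower (1.21 to 2.85) than WT. The latter left the fold when cells were thinned.

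Between WT and young WT mice the members past the fold, beside Relb and Med1, were these. Irak1 in cDC2 was 1.53-fold lower (1.11 to 2.13) in WT, at 83.4, 54.4, 58.2 and 61.2 CPM, and stayed past the fold in all 6 planned settings. In regulatory T cells, at 43.3, 66.9, 70.1 and 64.9 CPM, it was 1.55-fold higher (0.942 to 2.50), an interval that holds 1, and left the fold in 3 settings. Irak2 was 1.63-fold lower (1.02 to 2.80) in regulatory T cells, at 78.8, 47.5, 70.1 and 59.2 CPM, and 1.99-fold lower (1.17 to 3.18) in mature dendritic cells, at 144, 73.2, 69.5 and 71.1 CPM. Thinning turned the latter ratio just above 1, and in this order these ratios left the fold in 2 and 3 settings. Myd88 in ILC1, at 59.9, 39.6, 38.2 and 46.4 CPM, was 1.51-fold lower (1.24 to 1.85) and left the fold in 3. In neutrophils Myd88 was 1.57-fold lower (0.801 to 3.03), and Map3k7 in classical monocytes, at 36.5, 22.5, 31.3 and 26.3 CPM, was 1.63-fold lower (0.979 to 2.62), each with an interval that holds 1. The Map3k7 ratio turned above 1 when cells were thinned, and the Myd88 ratio stayed past the fold in all 6 settings. Age and treatment are joined in all of these.

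Neutrophils, pDC and mature dendritic cells had under 50 cells in at least 2 of the libraries, and their ratios are the least certain. The WT neutrophil gate held 23 cells whose summed neutrophil markers were lower than elsewhere, 114239, 29255, 148459 and 92036 CPM for 5 genes, with S100a9 the most abundant. Median UMIs per cell in this gate were 3652, 3636, 15944 and 15983, so its cells were not alike between the WT and mutant libraries. In these cells Irak2 was 412, 290.3, 84.1 and 109.9 CPM and Tab2 91.5, 151, 80.2 and 91.8 CPM, both lower in the mutants than in WT past the fold, and Irak3 was 103, 37.9, 94.3 and 73.7 CPM and Irak1 0, 12.6, 41.7 and 40.8 CPM, higher. The 0 allows up to 34.3 CPM, again at 3 UMIs. Relb (57.2, 75.7, 43.2 and 48.2 CPM) was lower past the fold in both mutants, Myd88 (217, 139, 87.3 and 106 CPM) in miR-146a-/- and Traf6 (34.3, 37.9, 18.1 and 21.5 CPM) and Map3k7 (34.3, 31.6, 18.1 and 22.1 CPM) in DKO mice. With TMM factors the ratios of Relb, Tab2, Myd88 and Map3k7 left the fold. The DKO ratios of Map3k7, Irak3 and Relb passed it in 2, 3 and 3 of 6 planned settings, and doubled gates turned the first of these and that of Irak3 to the other side of 1. Only the Irak2 ratios stayed past the fold in all 6. Of all genes compared in this class, 31.5% were lower and 16.5% higher in miR-146a-/- than in WT mice, and 26.0% and 17.4% in DKO mice, so such calls are common there. In pDC, Irak2 was 62.3, 92.1, 54.1 and 52.9 CPM, past the fold in both mutants with intervals that hold 1. With classes under 50 cells in either library left out, the counts of members past the fold fell to 5 higher and 7 lower of 113 for miR-146a-/- against WT, and to 2 and 6 of 113 for DKO against WT. The shares over all genes under this setting were 4.36% and 6.05%, and 4.10% and 5.46%, so these counts are not a result about the members. The part of purity in these ratios was not tested.

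**Figure D4:**
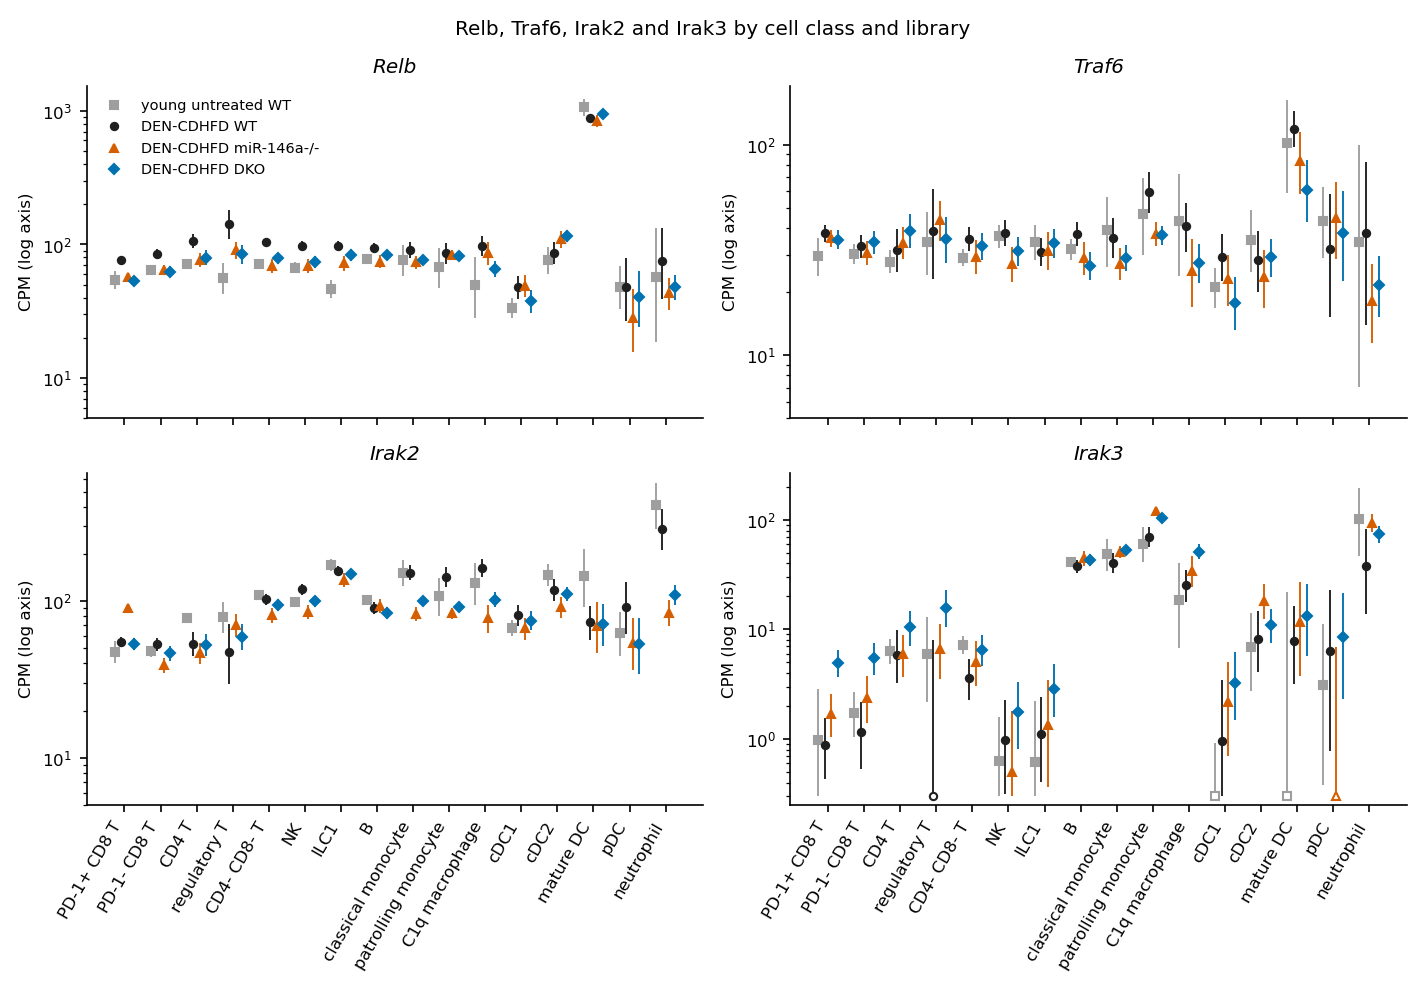
Relb, Traf6, Irak2 and Irak3 in each of the 16 classes (horizontal) and each library, in CPM on a log axis with exact 95% Poisson intervals, and open marks at the foot for levels of 0. Squares are young WT, circles WT, triangles miR-146a-/- and diamonds DKO, and the circle lies above the triangle for Relb in most classes and for Irak2 in the monocyte and macrophage classes.

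**Figure D5:**
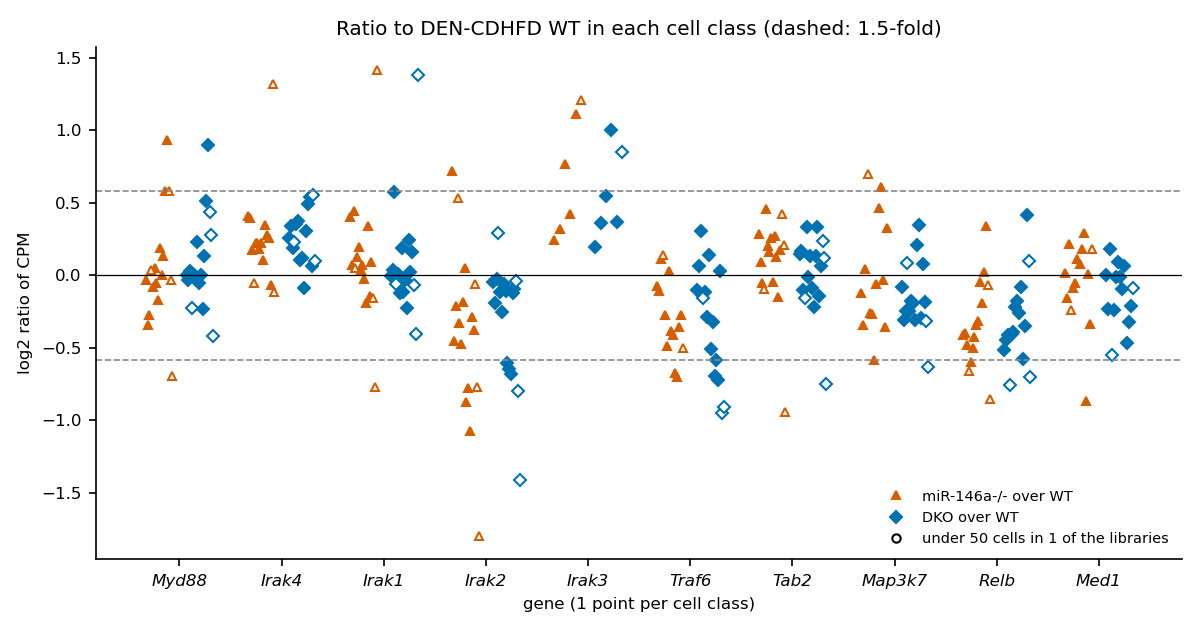
Log2 ratio of CPM to WT for each gene, with 1 point per class that met the minimum, triangles for miR-146a-/- and diamonds for DKO over WT. Dashed lines mark 1.5-fold and open points a class with under 50 cells in either library, and the points of Irak3 lie above 0 while most of Relb, Traf6 and Irak2 lie below.

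Genes that respond within minutes to stimulation or handling of cells moved along with Relb, Traf6 and Irak2. They were added after the values above had been seen. Fos was lower in miR-146a-/- than in WT mice past the fold in 16 of 16 classes (median log2 ratio -2.45), Jun in 15 of 16, Dusp1 in 15, Junb in 12 and the heat-shock genes Hspa1a and Hspa1b in 13 and 16. In DKO against WT mice the same genes were lower past the fold in 16, 13, 12, 13, 14 and 13 classes. Their summed level in NK cells was 6969.9, 6095, 2033 and 2342 CPM, and in patrolling monocytes 9480.3, 7583, 2736 and 3326 CPM, with none of the 6 at 0 and with Junb, Fos or Dusp1 the most abundant. Tnfaip3, the NF-kB target that removes ubiquitin chains from TRAF6, was lower in miR-146a-/- than in WT mice past the fold in 13 of 15 classes (median log2 ratio -1.14), as in NK cells, at 615, 619, 213 and 229.5 CPM. Rel was lower past the fold in 11 of 16 classes, Nfkbia in 7 and Nfkbiz in 5. Other NF-kB genes passed the fold in fewer classes, with Icam1 lower in 3 and higher in 1 (median log2 ratio -0.32), Nfkb1 lower in 1 and higher in 1 (-0.18), and Nfkb2 in 0 of 15 (-0.31). Over all genes, 7.36% of combinations with a class were lower past the fold. Unlike Relb, their sum was high in young WT as well. Their part in the results for Relb, Traf6 and Irak2 was not tested.

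The sites did not mark out genes in general. Among all genes with a match in the 3′ UTR, 5.08% of 12604 combinations with a class were higher past the fold in miR-146a-/- than in WT mice and 7.35% lower, against 5.40% and 7.23% of 97394 without a match. The median log2 ratios were -0.00227 and 0.00399. The members with sites, Traf6, Irak1, Irak2 and Med1, had medians over classes of -0.31, 0.07, -0.35 and 0.01. Transcript levels do not show changes in translation.

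Other genes of the route, proposed targets and partners of RelB were read as lists, against 5.66% higher and 7.36% lower over all genes of miR-146a-/- against WT. Of 27 further genes of the MyD88 and TRAF6 route, 25 met the minimum in some class, and 5 of 254 combinations were higher and 29 lower past the fold in miR-146a-/- than in WT mice, 1.97% and 11.4%, with a median log2 ratio of -0.07. The most abundant were Peli1, a ubiquitin ligase that acts on IRAKs, at 209, 212, 182 and 155 CPM over all gated cells, and Ube2v1, a partner of the enzyme that builds the chains with TRAF6, at 155, 164, 163 and 155 CPM. In the 3 classes with most UMIs (PD-1+ CD8, PD-1- CD8 and CD4- CD8- T cells), those past the fold were Map3k8, a kinase upstream of ERK, in PD-1- CD8 T cells (39.3 against 72.6 CPM, 1.84-fold lower) and in CD4- CD8- T cells (47.2 against 81.4 CPM, 1.72-fold lower), and, in PD-1+ CD8 T cells, Map2k3 (60.6 against 94.0 CPM, 1.55-fold lower) and Irf5 (7.68 against 16.3 CPM, 2.11-fold lower). Map2k3 encodes a MAP kinase kinase and Irf5 a transcription factor that binds MyD88. All of these were lower without miR-146a.

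Of 12 proposed miR-146a targets outside the route, 11 met the minimum, with 2 higher and 31 lower of 140 combinations (1.43% and 22.1%, median -0.09). Combinations repeat the same genes over classes that share libraries, for every list and comparison, so they are not independent. The median lies far from the fold. Over all gated cells genes of this list went both ways, with Rac1 higher and Cxcr4 lower in miR-146a-/- than in WT mice. The summed early-response genes fell in this comparison, in CD4- CD8- T cells from 6590 to 2304 CPM. Their part in this list and in that of the TRAF6 route was not tested. Over the 4 libraries together, Rac1 was the most abundant (297, 338, 376 and 401 CPM) and did not pass the fold in the 3 large T-cell classes. Cxcr4, a chemokine receptor, was lower in all of these, most in CD4- CD8- T cells (10.3 against 56.6 CPM, 5.43-fold lower), and also in PD-1+ CD8 T cells (8.40 against 30.0 CPM, 3.56-fold lower) and PD-1- CD8 T cells (25.3 against 50.7 CPM, 1.99995-fold lower). The death receptor Fas was lower in PD-1- CD8 T cells (20.2 against 32.6 CPM, 1.61-fold lower) and CD4- CD8- T cells (21.1 against 35.5 CPM, 1.68-fold lower). Of 10 partners of RelB in the alternative route, all met the minimum, with 2 higher and 8 lower of 109 (1.83% and 7.34%, median -0.16). The most abundant were Birc3, at 139.9, 151, 129 and 147 CPM, and Traf3, which is also on the list of the TRAF6 route, at 64.8, 76.8, 73.9 and 70.5 CPM. Nfkb2, the partner of Relb, was 58.9, 81.8, 65.7 and 71.6 CPM, with WT the highest as for Relb itself.

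In DKO against WT mice, 6 combinations were higher and 35 lower of 264 for the TRAF6 route (2.27% and 13.3%), 5 and 29 of 144 for the proposed targets (3.47% and 20.1%) and 4 and 10 of 113 for the partners of RelB (3.54% and 8.85%). Over all genes it was 5.39% and 6.73%. In the large T-cell classes those past the fold were Peli1 (191 against 309 CPM, 1.62-fold lower) and Map2k3 (60.8 against 94.0 CPM, 1.55-fold lower) in PD-1+ CD8 T cells, Map3k8 in PD-1- CD8 T cells (43.7 against 72.6 CPM, 1.66-fold lower), Cxcr4 in PD-1+ CD8 T cells (18.2 against 30.0 CPM, 1.65-fold lower) and CD4- CD8- T cells (22.1 against 56.6 CPM, 2.55-fold lower) and Fas in CD4- CD8- T cells (22.1 against 35.5 CPM, 1.60-fold lower). Between DKO and miR-146a-/- mice the counts were 10 and 8 of 263 (3.80% and 3.04%), 11 and 3 of 146 (7.53% and 2.05%), and 4 and 3 of 113 (3.54% and 2.65%), against 3.66% and 2.62% over all genes. For the TRAF6 route and the partners of RelB these shares are near those of all genes and are not a result about the lists. Here Map3k8 (23.0 against 14.6 CPM, 1.57-fold higher), Irf5 (14.2 against 7.68 CPM, 1.84-fold higher) and Cxcr4 (18.2 against 8.40 CPM, 2.16-fold higher) were higher in DKO PD-1+ CD8 T cells, as were Irf5 (41.0 against 25.9 CPM, 1.58-fold higher) and Cxcr4 (22.1 against 10.3 CPM, 2.13-fold higher) in CD4- CD8- T cells. In PD-1+ CD8 T cells the miR-146a-/- levels of Irf5 and Cxcr4 lie under 10 CPM, so both met the minimum through DKO. The part of free RNA in them was not tested.

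Between WT and young WT mice the lists gave 16 higher and 9 lower of 235 (6.81% and 3.83%), 20 and 10 of 137 (14.6% and 7.30%), and 16 and 4 of 110 (14.5% and 3.64%), against 6.37% and 5.46% over all genes. The share for the TRAF6 route is near that of all genes and is not a result about it. In PD-1+ CD8 T cells both chains of the interleukin-18 receptor, Il18r1 (20.8 against 49.2 CPM, 2.37-fold lower) and Il18rap (18.0 against 44.1 CPM, 2.45-fold lower), were lower in WT, as were Irf7 (73.2 against 129 CPM, 1.77-fold lower), Map3k8 (18.1 against 37.3 CPM, 2.07-fold lower), Map2k6 (13.6 against 23.3 CPM, 1.72-fold lower), Tab1 (9.51 against 15.6 CPM, 1.65-fold lower) and Fas (18.5 against 27.9 CPM, 1.51-fold lower). Map2k3 was higher (94.0 against 47.6 CPM, 1.97-fold higher). In CD4- CD8- T cells, Cxcr4 (56.6 against 22.5 CPM, 2.51-fold higher), Nfkb2 (86.6 against 55.4 CPM, 1.56-fold higher), Irf5 (27.5 against 17.1 CPM, 1.61-fold higher) and Fas (35.5 against 23.5 CPM, 1.51-fold higher) were higher in WT, and Irf5 was also higher in PD-1- CD8 T cells (13.2 against 7.77 CPM, 1.70-fold higher). The lower levels of Irf5 in PD-1- CD8 T cells (7.77 CPM) and of Tab1 (9.51 CPM) lie under 10 CPM. Relb in CD4- CD8- T cells, at 104 against 71.9 CPM, did not pass the fold.

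How alike the members were across cells was measured by Pearson's r of log2 (CPM + 1) over 54 combinations of class and library with at least 50 cells. These combinations share libraries, so r is a description. Among the members, Myd88 and Irak4 were the most alike (r = 0.862), both high in monocytes and macrophages, followed by Relb and Traf6 (r = 0.703). Of the combinations, 1 is of mature dendritic cells (WT), where Relb is far above its other levels, and without it r of Relb and Traf6 was 0.426, a value added after the others were seen. Irak1 and Irak3 were the most opposed of the members (r = -0.532). Out of 11086 genes, those most like Irak3 were Xylt1 (r = 0.932), Dok3 (r = 0.911) and Pou2f2 (r = 0.902). For Relb they were Dscaml1 (r = 0.801), Tmem150c (r = 0.8004) and Nfkb2 (r = 0.797), for Traf6 Gclc (r = 0.793), Zfc3h1 (r = 0.737) and Gadd45b (r = 0.722) and for Irak2 Rnf130 (r = 0.725), Gadd45g (r = 0.699) and Sh3bp2 (r = 0.687). Without the mature dendritic cells the r values of the same genes with Relb were 0.262, 0.308 and 0.794, and with Traf6 0.639, 0.488 and 0.606. For Relb, Nfkb2 alone of its 3 genes kept its r.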

How the data were processed

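The counts used are raw UMI counts in the matrices deposited by the authors, made with Cell Ranger 7.0.1 on mm10 per the file headers and labels, with cells called there and no further scaling. A cell was kept if it had between 600 and 6000 features and no more than 5% of UMIs from mitochondria, which left between 79464882 and 96747482 UMIs per library. Cells were gated into 16 classes by marker UMIs, and those passing gates of several lineages were left out. UMIs were summed per class and library and given as CPM with exact Poisson 95% intervals, and ratios, with a prior of 0.5, have exact conditional binomial intervals. The limit given for a count of 0 is the level of 3 UMIs. A gene needed 40 UMIs over both libraries and 10 CPM, and 1.5-fold was the mark. No paired analysis was possible because there was 1 library per group, and no test was run.

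Tools were Python 3.11.15, numpy 2.4.6, scipy 1.17.1, pandas 2.3.3, matplotlib 3.10.9, R 4.3.3 and edgeR 4.0.16 (TMM), with GENCODE M21 for 3′ UTRs. The 3′ UTR of a gene was that of its protein-coding basic transcript, APPRIS principal before others and then the longest. The interval code was checked on simulated data. Alternatives tried were TMM factors, a prior of 5, minimums of 10 and 100 UMIs, wider cell filters, doubled gates, cells of 2 lineages kept, thinning to 2000 UMIs, equal weight of cells, and higher and lower folds. Added after seeing the data were leaving out classes under 50 cells, asking that the interval leave out 1, leaving out cells with a Trbv13-3 UMI, and likeness without mature dendritic cells.

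All 10 members are named, with Ccl5 and genes at the miR-146a locus. From the other lists the named genes are the 2 highest in level (for the proposed targets, the highest alone) and those past the fold in the 3 classes with most UMIs, and likeness names the 3 nearest genes. The members and lists were chosen with earlier results of these data known. The UMI minimums of the gates were set while looking at the cells, while the marker genes were listed earlier. The genes of the early response, the V segment split and the condition of 50 cells for results picked out at the end were chosen after values were seen.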

Additional observations from a re-analysis of the deposited data

Results flagged for a closer look

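Irak2 moved in opposite directions in different cells under the same comparison, which picked it out. The log2 ratio of miR-146a-/- to WT mice was 0.72 in PD-1+ CD8 T cells and -1.07 in C1q macrophages, and the intervals of both ratios leave out 1. The former fell to 0.29 with cells of 2 lineages kept and to 0.23 with cells holding a Trbv13-3 UMI left out, both under the fold. The latter stayed past the fold in all 6 planned settings. The summed early-response genes were lower in both classes, from 8252 to 3198 CPM in C1q macrophages and from 3298 to 1814 CPM in PD-1+ CD8 T cells. Their part was not tested. Irak3 also went both ways between DKO and miR-146a-/- mice, at 1.23 in regulatory T cells and -0.75 in cDC2, where the interval of the ratio barely leaves out 1. The former left the fold in 2 of 6 planned settings and the latter with the gates doubled. Markers of other cells moved alongside. Between miR-146a-/- and DKO mice, neutrophil markers in regulatory T cells went from 8.64 to 16.9 CPM and monocyte markers in cDC2 from 3142 to 2265 CPM, and their part was not tested. With 1 library per group the difference between cell classes was not tested in either case, and the classes come from the same libraries. Results were picked out this way only among classes with at least 50 cells in both libraries.

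Another signal lies outside the members, in a gene that no comparison of the report uses. The gene Gm12147, an antisense transcript whose nearest edge lies 63.3 kb from the miR-146a gene, had 3 UMIs in young WT and 1 in WT mice, but 39 in miR-146a-/- and 53 in DKO mice. Its neighbours Gm12146 (29, 96, 189 and 212 UMIs) and Atp10b (4, 4, 21 and 29) were also higher in the mutants. Gm12148, on the other side, was not (20, 28, 14 and 15). Whether this follows from the deleted allele, the flanking DNA of the strain or the library was not tested.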

How the results depend on the processing

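Of 113 repeats of the counts under other settings, 72 stayed within 1.5 times the count reported and 41 did not. The cause was not tested. Counts are given as higher and lower past the fold where both moved. For miR-146a-/- against WT (9 and 14), a minimum of 100 UMIs and thinning each gave 5 higher, a 2-fold mark 4 and 2, a lower mark 25 and 34, and leaving out classes under 50 cells 5 and 7. For DKO against miR-146a-/- (1 and 4), a minimum of 100 UMIs gave 0 and 2, a minimum of 10 UMIs 7 higher, wider cell filters 2 higher, doubled gates 3 higher, thinning 4 higher, a 2-fold mark 0 lower and a lower mark 8 and 13. For DKO against WT (4 and 14), TMM gave 8 lower, a prior of 5 gave 2 higher, a minimum of 10 UMIs 13 higher, keeping cells of 2 lineages 8 higher, a 2-fold mark 2 and 1, a lower mark 20 and 27, leaving out classes under 50 cells 2 and 6, and asking that the interval leave out 1 gave 2 higher. For WT against young WT (5 and 6), TMM and doubled gates gave 8 higher, a minimum of 100 UMIs 3 and 3, a minimum of 10 UMIs 8 higher, thinning 9 higher, equal weight of cells 11 higher, a 2-fold mark 3 and 0, a lower mark 23 and 11, and leaving out classes under 50 cells 1 and 3. With the seed match to bases 2 to 7, 6 members in place of 4 had a match.

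Of 57 combinations of member and class past the fold, 20 stayed past it in all 6 planned settings of scaling, cells and gates (8 of 23, 0 of 5, 7 of 18 and 5 of 11 by comparison, in the order above), and 5 changed sign in some setting. Thinning turned the log2 ratio of miR-146a-/- to WT for Irak1 in neutrophils to -1.16, and that of WT to young WT to 0.69 for Map3k7 in classical monocytes and to 0.0947 for Irak2 in mature dendritic cells. Doubled gates turned the DKO to WT ratio in neutrophils to -0.20 for Irak3 and to 0.0651 for Map3k7. The libraries have no replicates, so differences between mice could not be measured.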
